A study of Mus musculus with 31 samples.

Results

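The mitochondrial genome of the mouse carries 37 genes, and all 37 were listed among the 54532 genes of the deposited counts. They were taken as every gene that the counts place on the sequence MT, and comprised 13 protein genes, 2 ribosomal RNA (rRNA) genes and 22 transfer RNA (tRNA) genes. RNA came from the hypothalamus of C57BL/6J mice aged 4 months, in 31 libraries. The mothers (dams) of 8 control females and 8 control males ate a control diet while pregnant and nursing, and those of 7 obesogenic females and 8 obesogenic males ate an obesogenic diet, which was high in fat and sugar. All offspring, controls included, went onto chow at weaning on postnatal day 21 and then, from 3 months of age, ate the obesogenic diet themselves for 4 weeks, so the groups differed in maternal diet and sex and no group stayed on chow. How many litters were used, and whether each library came from 1 animal, is not given in the labels, so p-values measure only the spread between these libraries.

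Mitochondrial DNA is a small circle that is copied and transcribed inside the organelle by proteins imported from the cytoplasm. Each strand is transcribed as a long RNA that is cut apart, mostly at the tRNAs that sit between the other genes, so the protein and rRNA members begin as pieces of shared precursors and then differ in how long they last. The protein genes all encode subunits of the respiratory chain and ATP synthase, the rRNAs form the mitochondrial ribosome, and the hypothalamus, where energy balance is regulated, is rich in neurons that depend on this chain.

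Of the 37 genes, 28 lay on the + strand of MT (the transcript of the heavy strand) and 9 on the − strand, namely mt-Nd6 and 8 tRNA genes. Stretches of the nuclear genome resemble some of these genes closely, and a read pair that fits both places cannot be assigned to either. On the − strand of chromosome 1, between 24611535 and 24616197 in build GRCm38, 7 annotated pseudogenes matched the stretch from MT:6390 to MT:11042 in the same order, with 4138 of 4140 aligned bases identical. In 5 of the 6 gaps between neighbouring copies the number of bases was the same on chromosome 1 and on MT. The first pair of sequences shows how little separates a gene from its copy. It gives the first 60 bases of mt-Nd3 (MT:9459-9518, + strand) and of Gm28438 (1:24613060-24613119, − strand), 5′ to 3′, with capitals at the single base that differs, written T3C when counted from 1 at the 5′ end of mt-Nd3. All sequences printed here are GENCODE M21 transcripts on GRCm38.
mt-Nd3: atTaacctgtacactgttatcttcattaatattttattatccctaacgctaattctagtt
Gm28438: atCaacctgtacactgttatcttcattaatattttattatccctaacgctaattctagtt

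The other difference in the block was A1066T, between mt-Co1 (MT:6390-6449 is shown, + strand) and Gm29216 (1:24616129-24616188, − strand), where the capital again marks the base that differs.
mt-Co1: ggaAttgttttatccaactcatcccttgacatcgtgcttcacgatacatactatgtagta
Gm29216: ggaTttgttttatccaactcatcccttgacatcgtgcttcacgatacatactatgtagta

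mt-Co2 and Gm28661 are shown because they cannot be told apart by sequence over their 681 aligned bases. These are their first 120 bases (MT:7013-7132, + strand, and 1:24615446-24615565, − strand), with no capitals because no base differs.
mt-Co2: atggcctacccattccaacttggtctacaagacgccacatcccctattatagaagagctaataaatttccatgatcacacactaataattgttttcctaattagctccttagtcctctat
Gm28661: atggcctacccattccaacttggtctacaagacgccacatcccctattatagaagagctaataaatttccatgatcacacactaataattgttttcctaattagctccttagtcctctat

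The copied block stopped inside mt-Nd4. In the next sequence (MT:10993-11092, + strand) the capitals mark the last 50 bases of mt-Nd4 that Gm28439 also holds, and the lower case continues into the part with no annotated copy.
mt-Nd4: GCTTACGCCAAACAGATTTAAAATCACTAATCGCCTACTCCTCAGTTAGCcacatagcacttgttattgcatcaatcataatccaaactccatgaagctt

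The extent of sharing was measured as the percent of a gene's 100-base windows that occur, letter for letter, in an annotated transcript from outside MT. It was 99.49% for mt-Co2, 99.48% for mt-Atp6, 99.85% for mt-Co3, 97.59% for mt-Nd3 and 98.48% for mt-Nd4l, and these 5 genes are called fully copied below. It was 60.75% for mt-Nd4, 30.84% for mt-Co1 and 3.195% for mt-Nd2. No 100-base window of mt-Rnr1, mt-Rnr2, mt-Nd1, mt-Nd5, mt-Nd6, mt-Cytb or mt-Atp8 was shared. mt-Atp8 nevertheless lies inside the copied block: 233 bases separate the copies of mt-Co2 and mt-Atp6 on chromosome 1, the same number as between these stretches on MT, and no transcript annotated there was found (the genome sequence of that gap was not used here). Gm29215, listed beside these copies, lies on the Y chromosome, matched no MT gene and had 0 pairs in all 31 libraries.

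Genes on MT also overlap each other, which matters because a pair that overlaps more than 1 gene on its strand is not counted. mt-Atp8 and mt-Atp6, both subunits of ATP synthase read in different frames, share 43 bases, shown in capitals at the end of mt-Atp8 (MT:7910-7969) and the start of mt-Atp6 (MT:7927-7986).
mt-Atp8 end: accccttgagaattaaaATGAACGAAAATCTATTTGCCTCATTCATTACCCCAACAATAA
mt-Atp6 start: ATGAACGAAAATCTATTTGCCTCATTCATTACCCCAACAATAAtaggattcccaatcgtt

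Some mitochondrial messages end before their stop codon is complete, and the poly(A) tail supplies the missing bases. The last 25 bases of mt-Cytb (MT:15264-15288), mt-Nd4 (MT:11520-11544) and mt-Co3 (MT:9366-9390) show this. The capital at the end is the first base of the stop codon, the only one encoded.
mt-Cytb 3' end: gacaaaatactaaaattatatccaT
mt-Nd4 3' end: aaactaattacaggcctgacaataT
mt-Co3 3' end: gtctccatttattgatgaggatctT

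The libraries held 23118626 to 38547288 counted read pairs, and MT genes took 4.27% to 7.94% of them (mean 5.91% ± 0.984, SD, n = 31). The hypothalamic markers summed to 1564 to 4140 CPM (counts scaled to a common library total) in 30 libraries, with Kiss1 listed at 0 in all 31. They summed to 311 CPM in the library labelled control female 5, whose olfactory bulb markers summed to 1737 CPM against group medians of 13.98 to 15.6. Xist and Y-linked reads went against the sex label in 2 libraries, labelled control female 7 and control male 7. The libraries labelled control female 5, control male 6 and obesogenic female 3 stood apart from the others by their correlation. Fold changes of the mitochondrial genes named below are also given without these 5 libraries where that turned their direction or moved them by more than 1.5 times.

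Along the genome the levels fell into 2 tiers. Levels are compared between genes only as CPM per kb of gene length (mean ± SD over 31 libraries). mt-Co1, the catalytic subunit of cytochrome c oxidase (MT:5328-6872), was highest at 11669 ± 2365. mt-Cytb of complex III (MT:14145-15288) followed at 8605 ± 1447 and mt-Nd1 of complex I (MT:2751-3707) at 7893 ± 1448, and the SDs of these neighbours in the order overlapped. mt-Nd2 (MT:3914-4951) had 4686 ± 923, mt-Nd5 (MT:11742-13565) 3072 ± 679.8 and mt-Nd4 (MT:10167-11544) 2790 ± 476, all complex I subunits. The rRNAs of the large and small ribosomal subunits, mt-Rnr2 (MT:1094-2675) and mt-Rnr1 (MT:70-1024), stood at 3678 ± 891 and 3555 ± 807, which is within their spread. These 8 genes formed the upper tier.

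The second, lower tier was the run of 6 neighbours from mt-Co2 to mt-Nd4l, each far below mt-Co1 before the run and mt-Nd4 after it. mt-Co2 (MT:7013-7696) and mt-Co3 (MT:8607-9390), the other core subunits of cytochrome c oxidase, had 65.2 ± 45.8 and 35.2 ± 24.2 CPM per kb. mt-Atp6 (MT:7927-8607) had 30.5 ± 27.4, mt-Nd3 (MT:9459-9806) 15.5 ± 4.88, mt-Nd4l (MT:9877-10173) 6.57 ± 3.05 and mt-Atp8 (MT:7766-7969) 4.19 ± 1.78. Of these 6 genes, 5 are the fully copied genes and the other is mt-Atp8. mt-Nd6, the only protein gene on the − strand (MT:13552-14070), lay in the same range at 44.1 ± 14.3, and it shared no window with another transcript. When the 2 partly copied genes were set against only the windows not found elsewhere, an alternative added after the data were seen, mt-Co1 had 18029 and mt-Nd4 7660 CPM per kb of such windows. A gene has fewer windows than bases, so this scale also raised genes with no shared window. On it mt-Cytb had 9420 and mt-Nd1 8804. How far the shared sequence sets the levels of the second tier was not tested.

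**Figure D1:**
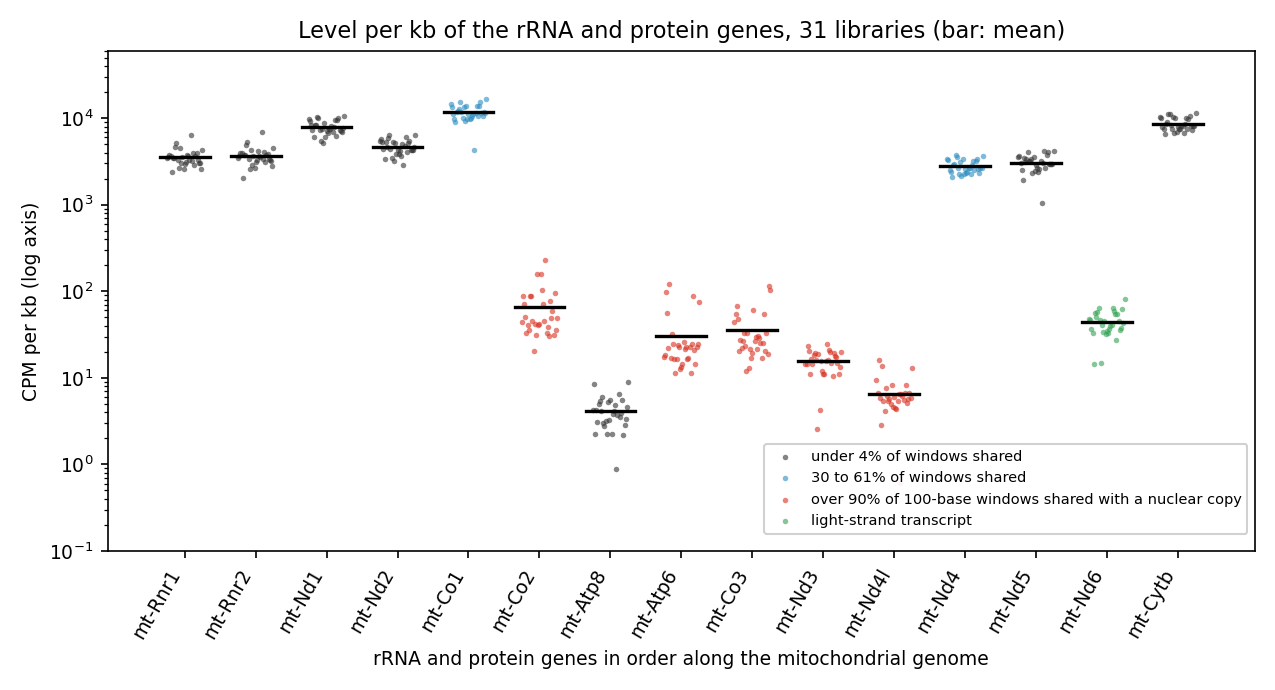
Level of the 2 rRNA and 13 protein genes in CPM per kb (log axis), in order along the mitochondrial genome, with 1 point per library (31 per gene) and a bar at the mean. The genes from mt-Co2 to mt-Nd4l lie between 4.19 and 65.2 on average, against 11669 for mt-Co1 before them and 2790 for mt-Nd4 after them.

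In counted pairs the contrast between tiers was as plain. mt-Co1 held 182261 to 822186 pairs in a library and mt-Cytb 197722 to 416202. mt-Co2 held 348 to 4341, mt-Atp6 189 to 2530, mt-Co3 229 to 2890, mt-Nd3 22 at the lowest (median 176), mt-Nd4l 5 to 134 and mt-Atp8 5 to 60. The 5 fully copied genes together took 0.00336% to 0.0201% of all counted pairs. The 7 copies held 1515 to 7304 pairs per library, equal to 0.120% to 0.295% of the pairs on MT.

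The tRNA genes are 59 to 75 bases long and adjoin or overlap their neighbours, so their levels are not set against the longer genes. Of the 22, 7 passed the filter on low counts and 15 did not. The 15 held at most 116 pairs over all libraries and at most 17 in 1 library, and mt-Tk, mt-Ts2 and mt-Tl2 had no pair in any library. mt-Tw, the tRNA for tryptophan between mt-Nd2 and mt-Ta, led with 172 to 794 pairs per library (median 482). mt-Tp for proline, the last gene before the control region, followed with 21 to 182 (median 95), and mt-Tt for threonine with 3 to 128 (median 55). The genes of these 3, which held the most pairs of any tRNA, are printed whole, mt-Tw (MT:4950-5016) and mt-Tt (MT:15289-15355) from the + strand and mt-Tp (MT:15356-15422) from the − strand, with no part in capitals.
mt-Tw: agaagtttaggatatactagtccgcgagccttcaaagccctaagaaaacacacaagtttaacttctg
mt-Tt: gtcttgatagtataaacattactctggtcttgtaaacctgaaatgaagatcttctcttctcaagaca
mt-Tp: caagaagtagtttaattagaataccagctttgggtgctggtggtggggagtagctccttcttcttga

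The other 4 tRNA genes tested were mt-Tm for methionine (median 28 pairs), mt-Tq for glutamine (median 24), and mt-Ti for isoleucine and mt-Ta for alanine (median 7 each). All 22 tRNA genes together took 0.000850% to 0.00360% of counted pairs.

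Libraries varied far more than counting error, and the tiers varied differently. The coefficient of variation over the 31 libraries was 16.8% for mt-Cytb, 17.1% for mt-Nd4, 18.3% for mt-Nd1, 19.7% for mt-Nd2, 20.3% for mt-Co1, 22.1% for mt-Nd5, 22.7% for mt-Rnr1 and 24.2% for mt-Rnr2, where counting alone would give 0.134% to 0.310%. It was 89.8% for mt-Atp6, 70.3% for mt-Co2, 68.6% for mt-Co3, 46.3% for mt-Nd4l, 42.4% for mt-Atp8, 31.5% for mt-Nd3 and 32.5% for mt-Nd6. No library exceeded 2 times the median for any gene of the upper tier.

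The large spread in the second tier came from single libraries that were high for 1 or a few genes. mt-Atp6 had a median of 420 pairs, and it had 2530 in control female 6, 2032 in obesogenic male 3, 1850 in control female 3, 1646 in obesogenic male 8 and 1404 in control female 4. mt-Co3, which adjoins it, had a median of 646 pairs and reached 2890 in obesogenic male 7 and 2605 in obesogenic male 8. In obesogenic male 7 mt-Atp6 stood at 16.9 CPM, close to its median of 15.3, and in control female 6 mt-Co3 stood at 21.4 CPM against a median of 21.04. Control female 3, obesogenic male 3 and obesogenic male 8 passed 2 times the median for both genes. Control female 2, control male 2 and obesogenic male 7 passed it for mt-Co3 alone, and control females 4 and 6 for mt-Atp6 alone. So high libraries were partly shared by these neighbours, but a library high for one gene was not always high for the gene beside it.

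mt-Co2 had a median of 983 pairs and was highest in control male 6 with 4341, followed by obesogenic female 6 with 3635, control male 2 with 3002, control male 3 with 2693 and obesogenic male 6 with 2325. mt-Nd4l passed 2 times its median in control female 3 (134 pairs), control female 6 (125) and obesogenic male 8 (123), and mt-Atp6 did so in the same 3 libraries. mt-Nd3 showed the opposite pattern, with 22 pairs in obesogenic female 3 and 38 in obesogenic female 5 against a median of 176.

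The copies on chromosome 1 also had single high libraries, and mostly not the same ones. Gm28661, the copy of mt-Co2, had a median of 524 pairs and 4504 in obesogenic female 1. Gm28437, the copy of mt-Co3, had a median of 572 and 2346 in control female 1. Gm29216, the copy of the end of mt-Co1, had a median of 431 and 3020 in control female 2, and Gm28438, the copy of mt-Nd3, a median of 54 and 214 in obesogenic male 6. Gm10925, the copy of mt-Atp6, stayed between 334 and 1286 pairs and Gm28439, the copy of the start of mt-Nd4, between 83 and 455. A gene and its own copy both passed 2 times their medians in 1 library for mt-Co2 (control male 6) and in 1 for mt-Nd4l (obesogenic male 8). What set these values in single libraries was not tested.

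**Figure D2:**
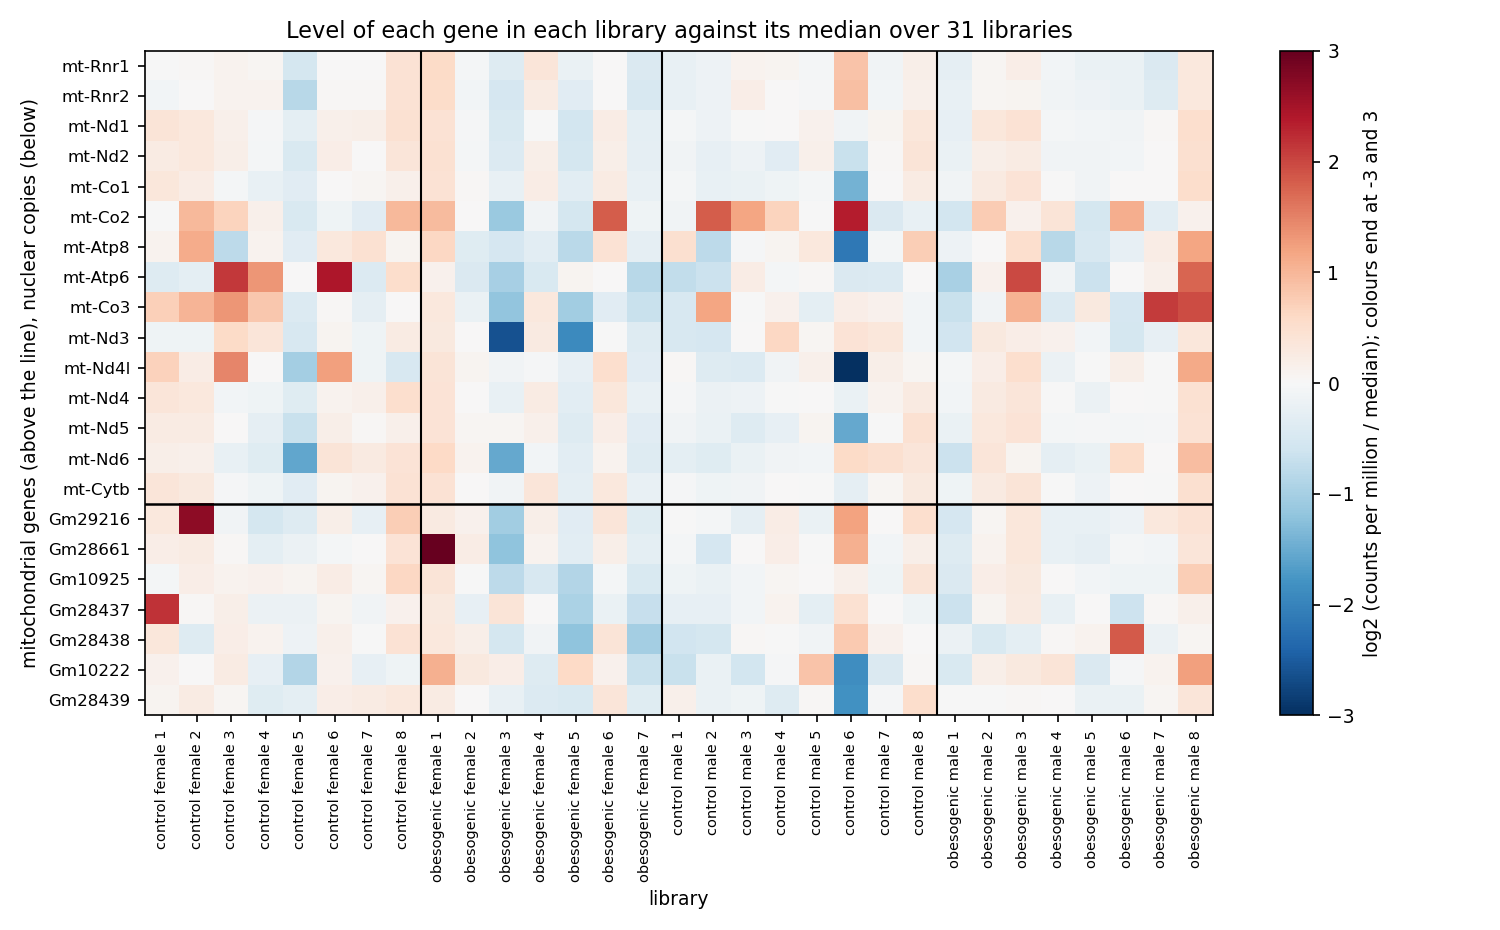
Level of 15 mitochondrial genes and 7 nuclear copies (rows) in each of 31 libraries (columns, by group), as log2 of CPM over the gene's median. The upper-tier genes are pale in most libraries, and isolated dark cells mark single libraries such as obesogenic female 1 for Gm28661 (4504 pairs against a median of 524).

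**Figure D3:**
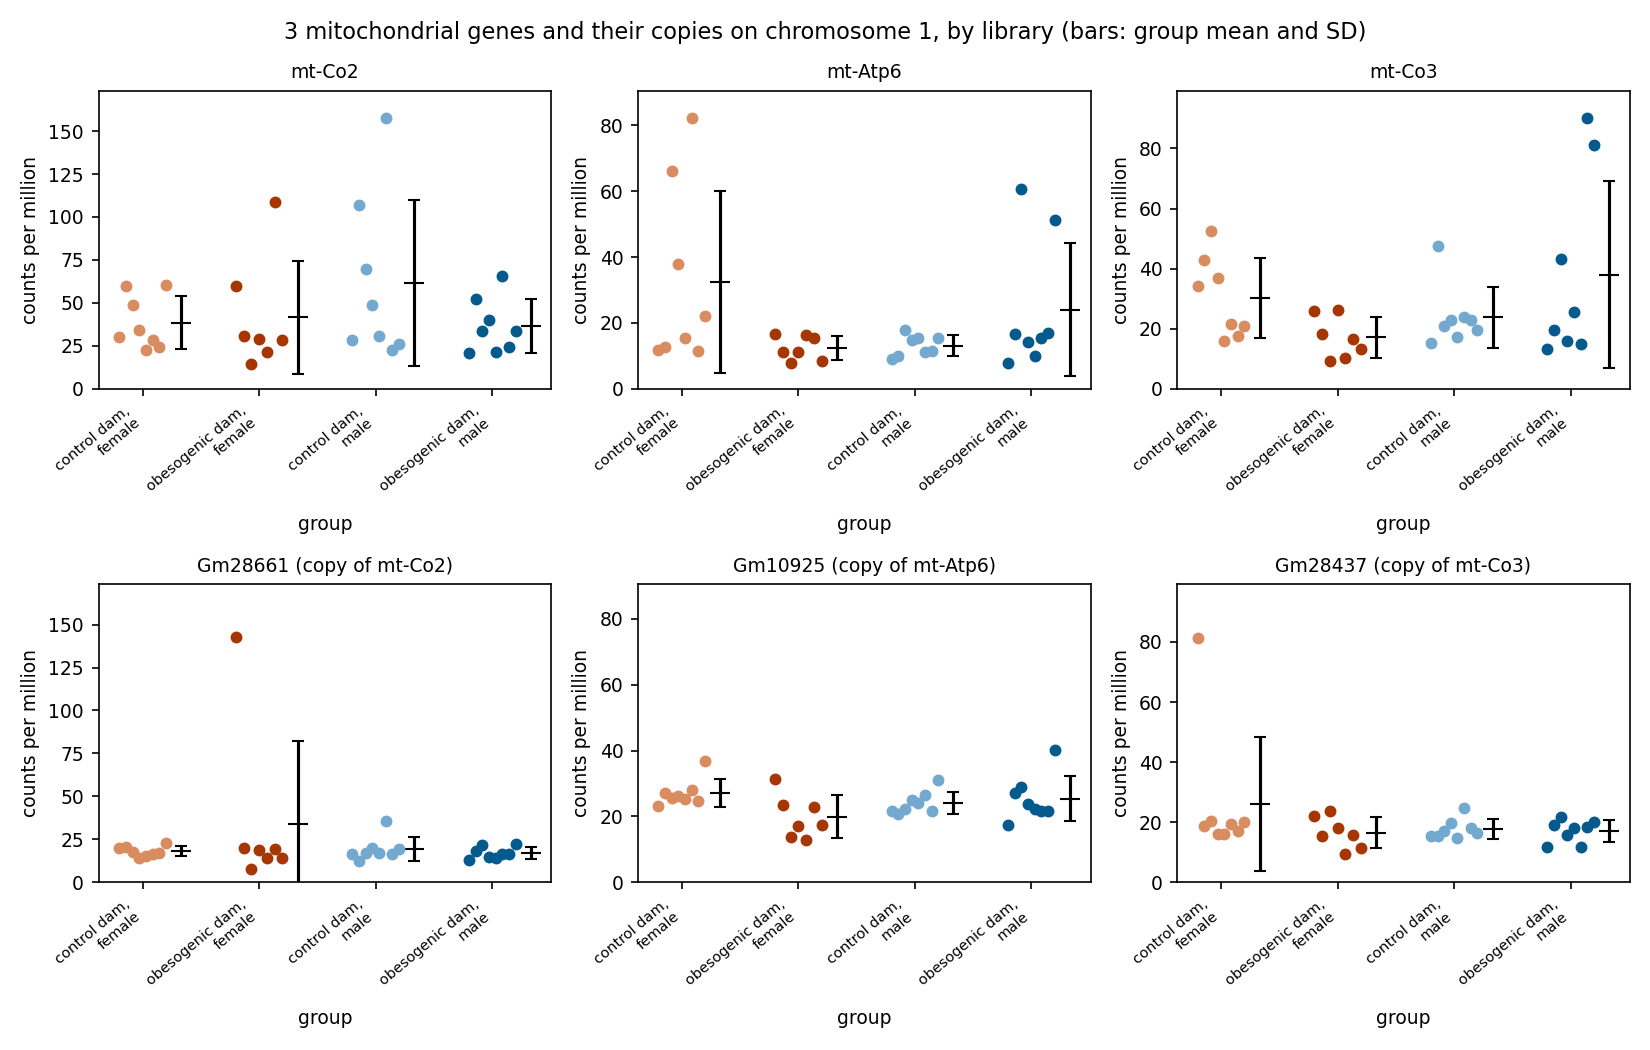
CPM of mt-Co2, mt-Atp6 and mt-Co3 (top) and of their copies on chromosome 1 (bottom) in each library by group, with the group mean and SD as bars on axes that start at 0. mt-Atp6 reaches 82.3 CPM in control female 6, and Gm10925 stays at or below 40.1 CPM in all 31 libraries.

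Read by group, the share of counted pairs on MT did not separate the maternal diets in either sex. In females all 37 genes took 6.07% ± 0.957 (SD, n = 8) of pairs in control offspring and 5.86% ± 1.27 (n = 7) in obesogenic offspring. In males they took 5.56% ± 0.698 (n = 8) and 6.15% ± 1.06 (n = 8). The ranges of the 4 groups overlapped, from 4.27% to 7.22%, 4.49% to 7.85%, 4.62% to 7.01% and 5.12% to 7.94% in that order.

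By class, the 13 protein genes took 5.14% ± 0.829 in control females, 4.96% ± 1.03 in obesogenic females, 4.56% ± 0.857 in control males and 5.28% ± 0.932 in obesogenic males. The 2 rRNA genes took 0.920% ± 0.182, 0.897% ± 0.250, 0.996% ± 0.292 and 0.870% ± 0.142. Control male 6 stood alone with 1.69% on rRNA and 2.93% on protein genes, the highest and the lowest of all 31 libraries. Its ratio of rRNA to protein pairs was 0.576, against 0.141 to 0.223 in the libraries of the other 3 groups. Without the 5 libraries named above, the rRNA share of control males was 0.905% ± 0.0986 (n = 6), below that of control females (0.980% ± 0.123, n = 6) where with all libraries it was above. In a bulk sample, fewer mitochondria, fewer cells rich in them and less mitochondrial RNA per organelle cannot be told apart.

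**Figure D4:**
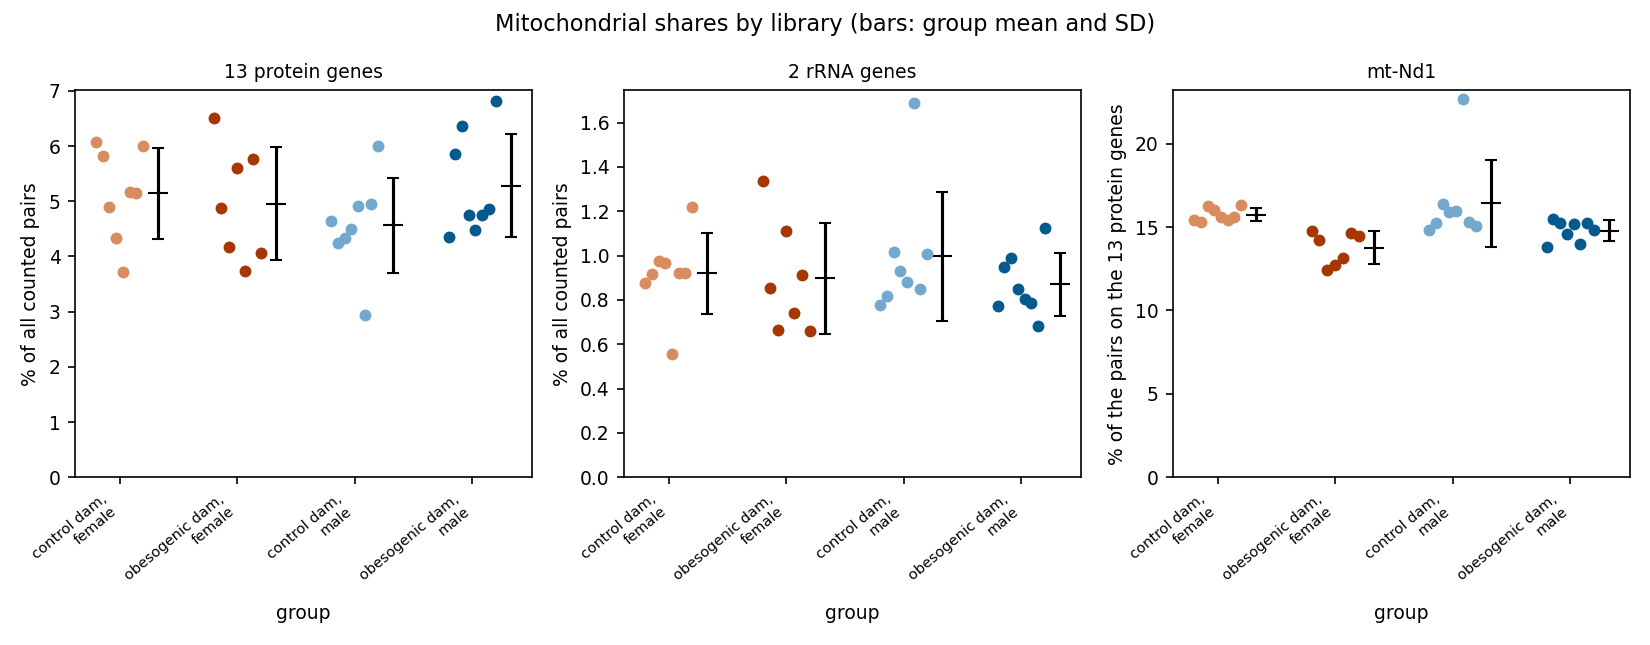
Percent of all counted pairs on the 13 protein genes (left) and the 2 rRNA genes (middle), and percent of the protein-gene pairs that lay on mt-Nd1 (right), per library and group, with group means and SDs as bars. Protein shares overlap among all 4 groups (2.93% to 6.81%), control male 6 is high for rRNA (1.69%), and on the right the 7 obesogenic females (12.4% to 14.8%) lie below the 8 control females (15.3% to 16.3%).

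In the pool of protein-gene pairs, the shares of the upper-tier genes were steadier than the size of the pool. The shares of the other protein genes were less steady, among them mt-Co2 with 0.0962% ± 0.0950 and mt-Atp8 with 0.00167% ± 0.000521. Over 31 libraries mt-Co1 made up 36.01% ± 2.74 of the pairs on the 13 genes, mt-Cytb 19.8% ± 1.38, mt-Nd1 15.2% ± 1.69, mt-Nd5 11.2% ± 1.17, mt-Nd2 9.75% ± 0.614 and mt-Nd4 7.75% ± 0.627. Control male 6 departed from this most, with 22.6% on mt-Co1, 22.7% on mt-Nd1, 26.4% on mt-Cytb, 10.8% on mt-Nd4 and 6.56% on mt-Nd5. All of these are shares of counted pairs and not of transcripts. Pairs that fit a copy cannot be assigned, which affects the 5 fully copied genes and the shared windows of mt-Co1 (30.84%) and mt-Nd4 (60.75%).

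One gene's share separated the maternal diets in females. mt-Nd1, whose product is a membrane subunit of complex I, made up 15.7% ± 0.397 of the 13-gene pool in control females (15.3%, 15.6% and 16.3% as lowest, median and highest). It made up 13.8% ± 0.972 in obesogenic females (12.4%, 14.2% and 14.8%). The 2 groups of females did not overlap. mt-Nd1 was the only 1 of 22 members tested with such a gap on this scale, and of all 18743 genes tested 0.0107% showed one when divided by the same sum. It was also the only member with a gap without the 5 libraries, where 0.0854% of all genes had one. mt-Nd1 is part of the sum it was divided by, and the nuclear genes are not, so their values keep that sum's spread between libraries. These percentages therefore do not measure how rare the gap is. Of the 13 genes in the sum, mt-Nd1 was the only 1 with a gap. In CPM scaled by edgeR's TMM factors no member's diet groups were free of overlap in females, where 0.117% of all genes were, nor in males (0.016%), and the same held without the 5 libraries (0.427% and 0.0534% of all genes).

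In males mt-Nd1 made up 15.6% of the pool at the median in control offspring (14.8% to 22.7%) and 15.02% in obesogenic offspring (13.8% to 15.5%), and the groups overlapped, as they did without control male 6 and control male 7. The share of mt-Co1 was 35.6% ± 1.43 in control females and 37.2% ± 0.587 in obesogenic females, and 34.2% ± 4.73 and 37.3% ± 0.497 in the males of those mothers, with overlap in both sexes. The ratio of mt-Co1 to mt-Nd1 pairs ran from 2.02 to 2.42 in control females and from 2.48 to 2.96 in obesogenic females. In control males it ran from 0.996 to 2.50 and in obesogenic males from 2.36 to 2.75, with overlap. The ratio uses the same mt-Nd1 counts as the share and is not a separate result. These shares and ratios are descriptions, and mt-Nd1 was singled out after its values were seen, so no test is given for it.

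Group differences were tested gene by gene on TMM-scaled values, that is, CPM after edgeR's TMM factor for each library. Of the 37 genes, 22 passed the filter on low counts (all 13 protein genes, both rRNA genes and 7 tRNA genes). In none of the 6 contrasts did edgeR call any of the 22 at an adjusted p below 0.05, and DESeq2 and limma voom called none either. Across all 18743 genes edgeR also called 0 (0%) in each contrast, where DESeq2 called 1 to 12 and limma voom 0 to 3. The 2 libraries whose sex-linked reads went against their label are both labelled as offspring of control dams. They therefore enter the diet contrasts, the interaction and the comparison of females with males from control dams. In the comparison within obesogenic dams they count only towards the shared estimate of spread.

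For maternal diet in females, 2 of 22 members had an unadjusted p below 0.05, where 8.12% of all genes did. Of the 22, 17 had a negative fold change (obesogenic minus control) and 5 a positive one. The median was -0.14 on the log2 scale and that of all genes -0.013. With a correction for gene length and GC content 14 were positive and 8 negative with a median of 0.053, so the direction of this count depended on the correction.

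mt-Atp6, the subunit of ATP synthase that forms part of its proton channel, had the smallest p. It is a fully copied gene (99.48% of its 100-base windows are shared), and a pair that fits both places cannot be assigned. Its values in all contrasts thus rest on the few pairs that were assigned, as do those of mt-Co2, mt-Co3, mt-Nd3 and mt-Nd4l. Whether they follow the amount of transcript was not tested. The TMM-scaled level of mt-Atp6 was 11.3, 18.5 and 81.0 CPM (lowest, median, highest) in control females and 7.68, 11.2 and 16.4 in obesogenic females. The groups overlapped, and the 3 control females that passed 2 times the median of all libraries (3, 4 and 6) made up the upper end. The fitted change was -1.38 ± 0.45 (SE) with an adjusted p of 0.524 (edgeR), and -1.55 ± 0.51 without the 5 libraries. Its copy Gm10925, which had no library over 2 times its median, had a fitted value of -0.46 ± 0.16 (adjusted p = 0.536, edgeR). Of the 7 copies tested, 5 had negative and 2 positive values (median -0.27), and edgeR called 0 of them. An unadjusted p below 0.05 was found for 4 of the copies (8.12% of all genes had one). Beside Gm10925 these were Gm28437 with -0.67 ± 0.28, Gm29216 with -0.84 ± 0.38 and Gm28661 with 0.90 ± 0.40, and each of those 3 had a library over 2 times its median.

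mt-Co3 ran from 15.6 through 27.9 to 51.5 CPM in control females and from 9.31 through 16.6 to 26.1 in obesogenic females. Its change was -0.83 ± 0.39 (adjusted p = 0.602, edgeR), and the groups overlapped. mt-Tt had -0.69 ± 0.38 (adjusted p = 0.634, edgeR). Of the positive values mt-Tm had 0.39 ± 0.33 (adjusted p = 0.737, edgeR), and mt-Co2 and mt-Nd5 had 0.11 ± 0.43 and 0.024 ± 0.17. mt-Tm was highest in obesogenic female 3 (2.40 TMM-scaled CPM), and without the 5 libraries mt-Tm had 0.057 ± 0.34 and mt-Nd5 -0.068 ± 0.15.

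In males the signs lay the other way for most members, 16 positive and 6 negative, with a median of 0.15 against 0.00038 for all genes. Again 2 of 22 members had an unadjusted p below 0.05, where 3.45% of all genes did, and the smallest adjusted p of any member was 0.940 (edgeR). mt-Co1 ran from 7275 through 16461 to 21631 TMM-scaled CPM in control males and from 16449 through 17929 to 26015 in obesogenic males. Its change was 0.32 ± 0.15, and 0.22 ± 0.12 without the 5 libraries, which leaves out control male 6, the lowest of all. The interval of the second value reached from -0.025 to 0.47.

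mt-Atp6 ran from 9.12 through 13.4 to 17.5 CPM in control males and from 7.74 through 15.9 to 61.3 in obesogenic males, with a change of 0.88 ± 0.42. The groups overlapped, and obesogenic males 3 and 8 were the 2 obesogenic males that passed 2 times the median of all libraries. mt-Co3 ran from 15.1 through 21.5 to 46.7 and from 13.3 through 22.97 to 90.9 CPM, with a change of 0.69 ± 0.37. mt-Co2 had -0.78 ± 0.42, and the rRNAs mt-Rnr2 and mt-Rnr1 had -0.22 ± 0.17 and -0.19 ± 0.16. mt-Co2 and both rRNAs were highest in control male 6, and without the 5 libraries the values were -0.49 ± 0.39, -0.043 ± 0.12 and -0.029 ± 0.13.

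**Figure D5:**
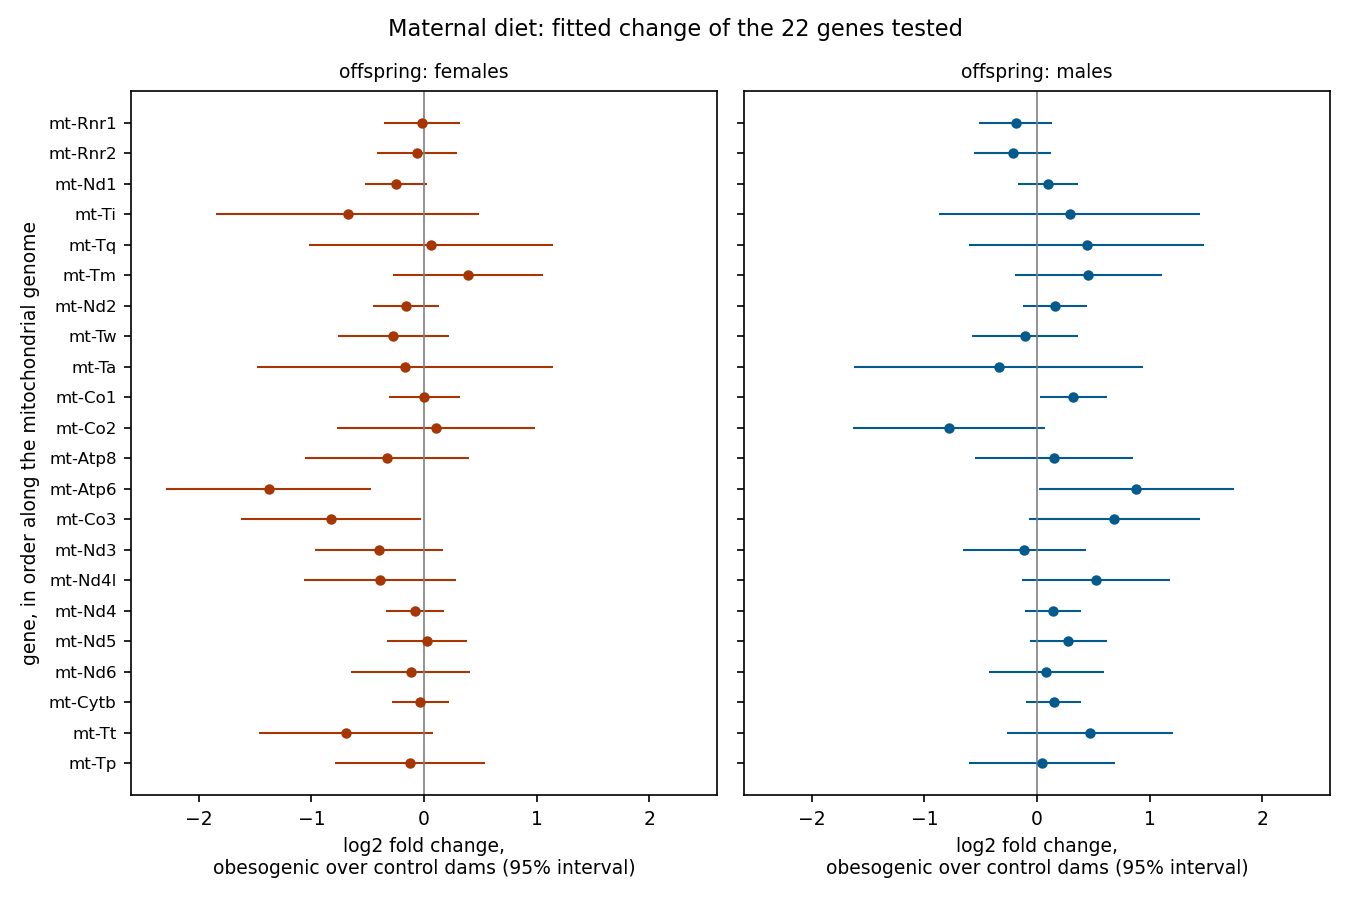
Fitted log2 fold change (obesogenic over control dams) with its 95% interval for the 22 genes tested, in females (left) and males (right), in order along the mitochondrial genome. Points lie mostly below 0 in females (17 of 22) and above 0 in males (16 of 22), the upper-tier genes have the narrowest intervals, and no gene passed an adjusted p of 0.05.

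For the upper-tier protein genes the group means of the 2 maternal diets differed by less than the larger of their SDs, in both sexes. In TMM-scaled CPM (mean ± SD, in the order control females, obesogenic females, control males, obesogenic males) mt-Nd1 had 8087 ± 1370, 6822 ± 1688, 7366 ± 867 and 7886 ± 1603. mt-Cytb had 10116 ± 1877, 9896 ± 2039, 9209 ± 1074 and 10198 ± 1825. mt-Co1 had 18230 ± 2994, 18282 ± 3603, 15820 ± 4032 and 19797 ± 3594. The precision here was set by the spread between libraries, and the 95% interval for mt-Cytb ran from -0.29 to 0.22 in females and from -0.100 to 0.39 in males.

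In the same order mt-Nd2 had 5207 ± 916, 4669 ± 1144, 4517 ± 987 and 5051 ± 863. mt-Nd4 had 3996 ± 817, 3783 ± 779, 3619 ± 416 and 3991 ± 675, and mt-Nd5 5629 ± 1123, 5723 ± 1120, 5002 ± 1602 and 6068 ± 1092. The rRNAs had 3388 ± 601, 3349 ± 908, 3667 ± 1238 and 3215 ± 589 (mt-Rnr1) and 5794 ± 1247, 5561 ± 1569, 6432 ± 2286 and 5539 ± 889 (mt-Rnr2). The groups overlapped for each of these genes.

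Among the low genes mt-Co2 had 38.5 ± 15.9, 41.4 ± 32.7, 62.8 ± 52.7 and 36.6 ± 15.6, and mt-Nd3 5.79 ± 1.34, 4.36 ± 2.34, 5.88 ± 1.70 and 5.44 ± 1.30. mt-Nd4l had 2.38 ± 1.37, 1.80 ± 0.403, 1.48 ± 0.578 and 2.12 ± 0.772, and mt-Atp8 0.945 ± 0.397, 0.749 ± 0.283, 0.812 ± 0.368 and 0.900 ± 0.445. mt-Nd6, the transcript of the other strand, had 22.2 ± 7.41, 20.4 ± 7.73, 23.8 ± 7.09 and 25.2 ± 9.05. mt-Atp6 had 32.1 ± 27.01, 12.3 ± 3.64, 13.2 ± 3.04 and 24.3 ± 20.4, and mt-Co3 30.3 ± 13.4, 17.02 ± 6.83, 23.9 ± 9.84 and 38.4 ± 31.4. Only in these last 2 genes and mt-Co2 did an SD exceed 20 CPM in any group while the mean stayed below 70.

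For the mean of both sexes 0 of 22 members had an unadjusted p below 0.05 (10.2% of all genes did). Among the positive values mt-Tm had 0.42 ± 0.23 (adjusted p = 0.512, edgeR), mt-Co1 0.16 ± 0.11 and mt-Nd5 0.15 ± 0.12. Among the negative ones mt-Nd3 had -0.26 ± 0.19, mt-Tw -0.19 ± 0.17 and mt-Rnr2 -0.14 ± 0.12. Without the 5 libraries all 6 lay nearer to 0, at 0.21 ± 0.23, 0.10 ± 0.088, 0.048 ± 0.10, -0.16 ± 0.16, -0.12 ± 0.15 and -0.071 ± 0.090 in the same order.

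The difference between the sexes in the effect of maternal diet was tested as an interaction (diet effect in females minus that in males), and 3 of 22 members had an unadjusted p below 0.05 against 3.62% of all genes. mt-Atp6 had -2.26 ± 0.61, mt-Co3 -1.51 ± 0.54 and mt-Tt -1.16 ± 0.53, each with an adjusted p of 0.9996 (edgeR). The libraries over 2 times the median of mt-Atp6 were control females 3, 4 and 6 and obesogenic males 3 and 8, and the interaction without them was not tested. mt-Co2 had 0.89 ± 0.60, mt-Rnr1 0.17 ± 0.23 and mt-Rnr2 0.16 ± 0.24, and without the 5 libraries these were 0.56 ± 0.57, -0.015 ± 0.19 and -0.056 ± 0.18.

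The comparison of females with males was made within each maternal diet. Among offspring of control dams 2 of 22 members had an unadjusted p below 0.05 (4.39% of all genes did). mt-Atp6 had 1.28 ± 0.43 (adjusted p = 0.870, edgeR), mt-Ti 1.05 ± 0.56 and mt-Nd4l 0.68 ± 0.32, while mt-Co2 had -0.71 ± 0.42, mt-Rnr2 -0.15 ± 0.17 and mt-Rnr1 -0.11 ± 0.16. Without the 5 libraries mt-Co2 had -0.23 ± 0.41, both rRNA values were positive, 0.12 ± 0.13 for mt-Rnr2 and 0.13 ± 0.14 for mt-Rnr1, and edgeR called 11 genes in all (0.0588%), with no member among them.

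Among offspring of obesogenic dams 2 of 22 members again had an unadjusted p below 0.05 (3.63% of all genes did). mt-Co3 had -1.17 ± 0.39, mt-Atp6 -0.98 ± 0.44 and mt-Tt -0.70 ± 0.38, each with an adjusted p of 0.99998 (edgeR). Of the positive values mt-Tm had 0.17 ± 0.33, mt-Ta 0.28 ± 0.65 and mt-Co2 0.18 ± 0.43. Without the 5 libraries mt-Tm was -0.097 ± 0.31 and mt-Co2 0.33 ± 0.39, and edgeR called 14 genes (0.0749%), with no member among them.

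The nuclear genes that copy, transcribe and process mitochondrial DNA and RNA were read beside the members, from 5 lists. In none of the 6 contrasts did edgeR call a gene of these lists, and the largest distance of a list's median from 0 was 0.14 on the log2 scale, for transcription genes in the comparison of females with males from control dams (-0.14, and -0.068 without the 5 libraries). For maternal diet in females 1 of 11 replication genes had an unadjusted p below 0.05, namely Ssbp1, the single-stranded DNA-binding protein of the replication fork, with -0.37 ± 0.13 (adjusted p = 0.524, edgeR). Of all genes 8.12% had such a p in that contrast. The list's median was -0.0010 against -0.013 for all genes.

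Of 11 transcription genes 2 had an unadjusted p below 0.05 in females, Polrmt, the mitochondrial RNA polymerase, with 0.20 ± 0.098 and Tfb2m, which opens the promoter for it, with -0.24 ± 0.10, so they did not move one way. None of 13 RNA processing genes did, nor in males. Among 9 stability and decay genes Mtpap, the polymerase that adds the poly(A) tails, had -0.24 ± 0.083 (adjusted p = 0.524, edgeR) in females. In males Slirp, a partner of the RNA-stabilising protein Lrpprc, had -0.31 ± 0.14 (adjusted p = 0.940, edgeR). Of 20 tRNA and rRNA modification genes 3 had an unadjusted p below 0.05 in females and 0 in males. Among the 3 were the pseudouridine synthases Rpusd4 with 0.38 ± 0.15 and Trub2 with -0.21 ± 0.085. Beside these counts, 8.12% of all genes had an unadjusted p below 0.05 in females and 3.45% in males.

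Markers of cell types were summed for the same groups. The group medians of the neuronal list were 3795 to 4128 CPM, of the astrocyte list 5040 to 5498 and of the oligodendrocyte list 6581 to 7022, and their ranges overlapped between groups. Pituitary markers ranged most, from 0 to 6185 CPM within control females alone, with the highest value in control female 4. They ran from 2.85 to 1222 CPM in obesogenic females, from 27.8 to 946 in control males and from 15.2 to 351 in obesogenic males. The part of cell makeup in the values of the members was not tested.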

How the data were processed

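RNA was measured in 31 hypothalamus libraries, made from total RNA isolated with the RNAqueous kit and prepared with TruSeq protocols, per the labels' protocols. Per the file headers, the authors obtained the deposited raw counts, in read pairs, by running featureCounts 1.6.2 against the Ensembl GRCm38 annotation, release 94, for the reverse strand, requiring mapped mates and a mapping quality of at least 10. FastQC, TopHat2 2.0.13, Subread, edgeR and build mm10 are named in the submitters' processing notes. The command names neither multi-mapping pairs nor pairs that overlap more than 1 gene, and by default featureCounts drops both, so pairs are lost where a gene has a copy or an overlapping neighbour. Poly(A) selection or rRNA depletion, read length and batches: not given in the sources used here.

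Members were the 37 genes on MT. Members and gene lists were chosen with earlier results of these data known. Levels are CPM, 1 pair being worth 0.0259 to 0.0433 CPM, and CPM per kb. The test of group differences was edgeR 4.0.16 in R 4.3.3, with filterByExpr (18743 genes), TMM, robust quasi-likelihood tests on 4 group means, Benjamini-Hochberg adjustment over all genes tested, threshold 0.05. On simulated data the fit recovered 81% of 100 genes changed by 1 log2 unit and 98% of 100 changed by 2 for diet in females (18471 genes). The changed genes were drawn only from those above a minimum mean count. No simulated library stood apart or went against its label. These rates were therefore not measured for members with few pairs or with single high libraries. Alternatives were DESeq2 1.42.0, limma 3.58.1 voom, other scalings, filters and library sets, and a trend in length and GC content. Per contrast, the 3 members of smallest p in each direction are named. Prorp, a processing gene, was not found under that symbol. Sharing of sequence was searched in GENCODE M21 transcripts (GRCm38) in 100-base windows.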

Additional observations from a re-analysis of the deposited data

Results flagged for a closer look

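Within each group, the highest and lowest library of the 22 members tested and of the class shares was checked for a gap to its neighbour that was large for the group's range (Dixon's criterion). Of 104 such checks 12 passed. Chance gives about 1 in 20 for a single check. The checks are not independent, because the members were measured in the same libraries and the class shares are sums of members. The 12 can therefore not be set against that rate. In control male 6 mt-Rnr1 (6620 TMM-scaled CPM), mt-Rnr2 (11906), mt-Tw (31.7), mt-Tp (5.35) and the rRNA share (1.69% of pairs) were far above the other control males, and mt-Co1 (7275) and mt-Nd4l (0.200) far below. The next control males had 3812 for mt-Rnr1, 6501 for mt-Rnr2, 19.6 for mt-Tw, 3.12 for mt-Tp, 1.02% for the rRNA share, 14936 for mt-Co1 and 1.27 for mt-Nd4l. In this library the 20 hypothalamic markers summed to 4140 CPM, the highest of all 31. The oligodendrocyte (9909 CPM), microglia (579) and blood (560) sums were also highest there, and the neuronal sum (3498) was the lowest of the control males. It had 18734 genes with a pair and obesogenic female 3 had 18513, where all other libraries had 21311 to 22918. The part of these differences in the values above was not tested.

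Single values stood apart in other libraries. mt-Co3 was high in control male 2 (46.7 CPM), mt-Cytb in control male 8 (11652), mt-Nd4l in obesogenic male 8 (3.89) and mt-Tm in obesogenic female 3 (2.40). mt-Tw was low in control female 5 (6.03), the library with 311 CPM on hypothalamic markers.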

How the results depend on the processing

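No member was called under any of the 12 alternatives, of which the fit to only the 2 groups compared was run on 4 contrasts and the others on 6, and the group means of the MT share moved by less than 1 SD under each of theirs. For 36 named fold changes 400 of 416 alternative values kept their direction, and 16 values of 9 results, none called, turned. With limma voom these were mt-Co2 (-0.013) and mt-Nd5 (-0.080) for diet in females, mt-Rnr1 for diet in males (0.014), mt-Rnr1 (-0.066) and mt-Rnr2 (-0.096) in the interaction, mt-Rnr1 (0.11) and mt-Rnr2 (0.094) for sex in control offspring and mt-Co2 for sex in obesogenic offspring (-0.061). Without the 2 libraries whose titles carry 2 numbers, mt-Nd5 in females was -0.047 and mt-Co2 for sex in obesogenic offspring -0.012. Without the 5 libraries, mt-Nd5 in females was -0.068, mt-Rnr1 and mt-Rnr2 -0.015 and -0.056 in the interaction and 0.13 and 0.12 for sex in control offspring, and mt-Tm for sex in obesogenic offspring -0.097. The cause was not tested. Genes called over the whole table differed by tool, edgeR calling 0 and DESeq2 1 to 12 per contrast. No paired analysis was possible because the labels give no replicate numbers that link libraries. For each of the 22 genes tested the spread between libraries exceeded counting error, which was largest for mt-Ti (35.5% against 71.0%).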
